A study of Mus musculus with 21 samples.

Results

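The genes described here are 10 genes of megakaryocytes and platelets, Pf4, Ppbp, Itga2b, Itgb3, Gp1bb, Gp5, Gp6, Gp9, Treml1 and Vwf, given by name and found by symbol among the 45706 Ensembl mouse genes of each count table. All 10 passed the filter on low counts, which kept 19555 genes. RNA was sequenced from 3 sorted cell fractions of mice: LSK cells of the bone marrow (BM), which are lineage-depleted stem and progenitor cells sorted as Sca1+ and cKit+, and CD11b+ myeloid cells taken from the BM and from the spleen on magnetic columns. Each fraction has 2 libraries of MxCre mice, which carry the interferon-inducible Cre transgene alone, 2 libraries of Ptpn11D61Y/+ mice without Cre, and 3 libraries of S3 MxCre;Ptpn11D61Y/+ mice, which are terminally ill with a disease like juvenile myelomonocytic leukemia (JMML) and are called S3 here. Per the study's methods, mice of every genotype had received poly I:C, although the labels give no treatment. The study's supplement states that Ptpn11D61Y/+ mice carry a stop cassette before the mutant allele, which keeps it silent without Cre. It describes only their other Ptpn11 allele as working, and likens this to a heterozygous knock-out. The study places this terminal stage months after poly I:C, and ages at sampling are not given in the labels. The S3 libraries are labelled with the numbers 540, 640, 768 and 815. The numbers 540 and 815 label libraries of all 3 fractions, 640 labels both CD11b+ fractions and 768 labels LSK cells. The libraries hold between 34992610 and 104509425 counts, with a median of 69421661.

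Megakaryocytes arise in the BM from stem and progenitor cells and shed platelets into the blood. Their differentiation turns on a set of lineage genes together: chemokines stored in the alpha granules, the fibrinogen receptor integrin alphaIIb-beta3, the receptor complex GPIb-IX-V that binds von Willebrand factor, the collagen receptor GPVI, the granule-membrane receptor TLT-1, and von Willebrand factor itself. Some of these genes are also transcribed in a subset of hematopoietic stem cells that is primed for the platelet lineage, and Itga2b is known as CD41 in early progenitors. Several are not limited to the lineage, since Vwf is a gene of endothelial cells as well, Itgb3 is expressed by myeloid and other cells as a partner of other integrin alpha chains, and Pf4 transcripts occur in some macrophages.

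The promoters of Pf4, Itga2b, Gp5 and Gp9 are shown because these members represent the granule chemokines, the fibrinogen receptor and the GPIb-IX-V complex in the results, and because GATA and ETS factors are the textbook regulators of the lineage. The 200 bases before the RefSeq start are printed 5′ to 3′ on the strand of the gene, from the RefSeq annotation of GRCm38.p6, at chr5:90772235-90772434 on the plus strand for Pf4, chr11:102469884-102470083 on the minus strand for Itga2b (within the Ensembl gene given further on, whose start lies upstream of the RefSeq start), chr16:30310782-30310981 on the minus strand for Gp5 and chr6:87777870-87778069 on the plus strand for Gp9. Capitals mark matches, on either strand, to the GATA letters AGATAA or else AGATAG or else TGATAA or else TGATAG, or to the ETS letters AGGAAG or else CGGAAG. No match to one motif overlapped a match to the other.
Pf4: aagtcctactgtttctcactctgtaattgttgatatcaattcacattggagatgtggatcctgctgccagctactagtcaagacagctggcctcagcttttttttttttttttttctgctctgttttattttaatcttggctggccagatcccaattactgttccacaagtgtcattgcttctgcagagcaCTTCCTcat
Itga2b: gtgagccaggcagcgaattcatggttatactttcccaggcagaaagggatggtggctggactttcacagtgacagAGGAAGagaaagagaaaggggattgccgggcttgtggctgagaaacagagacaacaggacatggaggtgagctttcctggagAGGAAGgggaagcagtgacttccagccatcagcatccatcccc
Gp5: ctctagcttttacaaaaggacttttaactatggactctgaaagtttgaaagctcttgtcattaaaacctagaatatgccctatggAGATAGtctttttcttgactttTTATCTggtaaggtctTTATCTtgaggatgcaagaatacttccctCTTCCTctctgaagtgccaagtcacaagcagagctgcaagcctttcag
Gp9: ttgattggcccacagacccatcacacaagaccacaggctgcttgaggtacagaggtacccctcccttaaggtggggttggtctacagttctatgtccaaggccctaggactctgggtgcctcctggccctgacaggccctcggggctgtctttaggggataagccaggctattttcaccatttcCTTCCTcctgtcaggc
A RefSeq promoter was found for 8 of the 10 genes. Within 250 bases before the start, 3 of these 8 promoters held a GATA match (Gp1bb, Gp5 and Gp6) and 5 held an ETS match (Pf4, Itga2b, Gp1bb, Gp5 and Gp9), against 26.5% and 39.2% of 32851 mouse promoters. Gp5 and Gp1bb held both, as did 9.21% of all promoters. Gp5 had 3 GATA matches and 1 ETS match, Itga2b had 2 ETS matches, and the shown stretches of Pf4 and Gp9 had 1 ETS match each. These matches describe the sequence only.

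The labels were checked before the results. Ptpn11, the mutated gene, stood in LSK cells at 6.79 and 6.86 log2 CPM (counts-per-million of the normalized library, on a log2 scale with a prior count of 2) in MxCre, at 6.002 and 5.92 in Ptpn11D61Y/+ and at 7.26, 7.25 and 7.13 in S3. The groups did not overlap, and the Ptpn11D61Y/+ libraries were the lowest. The CD11b+ libraries did not separate the groups in this way: Ptpn11 had 4.46 and 5.42 log2 CPM in MxCre, 5.53 and 5.78 in Ptpn11D61Y/+ and 5.97, 6.89 and 4.72 in S3 in BM, and 3.87 and 5.26, 5.96 and 5.14, and 6.52, 7.13 and 5.90 in spleen. The summed level of 6 LSK markers (Kit, Ly6a, Cd34, Flt3, Mecom and Hlf) ran from 1012 to 1577 CPM in LSK libraries and from 24.0 to 527 CPM in CD11b+ libraries, and that of 7 CD11b+ myeloid markers from 384 to 2025 CPM and from 8681 to 94450 CPM. The CD11b+ libraries also held erythroid transcripts, from 11820 to 143600 CPM over 8 genes in BM and from 821 to 24350 CPM in spleen. Xist, which is transcribed in female cells, and Ddx3y, a gene of the Y chromosome, were both present in 3 libraries. The LSK library labelled 540 had 1 count of Xist and 5083 of Ddx3y. Its BM CD11b+ library had 2780 and 173 counts, its spleen CD11b+ library had 712 and 1275, and replicate 2 of BM MxCre had 2834 and 353. In LSK cells, the S3 libraries 768 and 815 had 88850 and 39460 counts of Xist and 0 of Ddx3y, while library 540 and all 4 control libraries had at most 17 of Xist and at least 4619 of Ddx3y, so that sex and genotype are partly confounded there. In spleen, the MxCre libraries had 0 and 4 counts of Xist and 4395 and 2500 of Ddx3y. The spleen S3 library 815 had 3941 of Xist and 0 of Ddx3y, so that sex and genotype are partly confounded in spleen as well. By the counts given above, the libraries labelled 540 cannot all come from the same single animal. The number is used here as a label, except in alternative fits with a replicate block, which pair libraries by number. Whether some CD11b+ libraries hold cells of more than 1 mouse was not tested. Another 3 libraries had few genes detected, namely replicate 1 of MxCre in BM (14885) and in spleen (14641) and the BM CD11b+ library of S3 animal 815 (14761). Without the libraries with both genes, 1 MxCre library is left in BM, and without those with few genes detected 1 is left in BM and 1 in spleen. The lone library is then assumed to vary like the other groups. Calls between cell fractions that were gained or lost without either set of libraries are given beside the results.

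In LSK cells, the 10 genes had a higher summed level in every S3 library than in either MxCre library, but none was called. Their summed level was 223 and 211 CPM in MxCre, 606 and 451 CPM in Ptpn11D61Y/+ and 520, 506 and 374 CPM in S3 (labelled 540, 768 and 815). For 9 of the 10 genes the lowest S3 library exceeded the higher MxCre library, and for all 10 the lower Ptpn11D61Y/+ library did so, as was the case for 29.1% and 28.3% of all genes tested. Over the 10 genes, the median log2 fold change was 1.64 for S3 against MxCre and 1.59 for Ptpn11D61Y/+ against MxCre, beside 0.006 and -0.006 over all genes tested. None of the 10 passed the threshold of an adjusted p under 0.05 in either comparison, where 0.0307% and 0.0614% of all genes did, in a fit that shares 1 estimate of the spread per gene over all 21 libraries, CD11b+ ones included. Both comparisons use the same 2 MxCre libraries, so that they are not independent of each other.

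**Figure D1:**
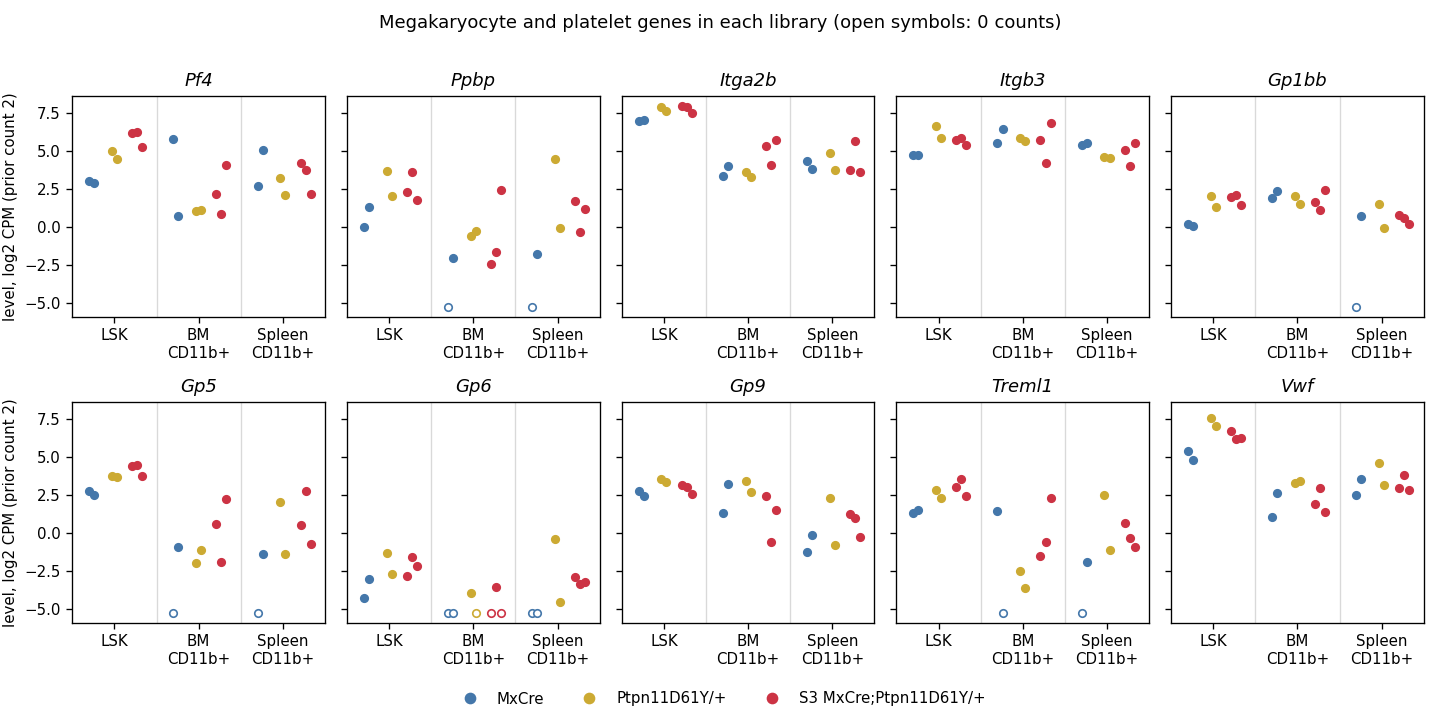
Level of each of the 10 genes in each library, in log2 CPM with a prior count of 2 (vertical axis), by cell fraction (horizontal axis) and genotype (colour). Each point is 1 library and open symbols stand for a count of 0. In LSK cells, Pf4 ran from 2.86 log2 CPM in MxCre to 6.25 in S3, and in the CD11b+ fractions most genes lay lower and libraries of 1 group lay further apart.

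The alpha-granule chemokines come first. Pf4 (ENSMUSG00000029373, chr5:90772435-90773383 of GRCm38, plus strand) encodes platelet factor 4. Its level in LSK cells was 8.25 and 7.23 CPM in MxCre, 32.5 and 21.8 CPM in Ptpn11D61Y/+ and 71.9, 76.2 and 38.4 CPM in S3. The 3 groups did not overlap, S3 was the highest, and the log2 fold change of S3 against MxCre was 3.00 (standard error 1.18, unadjusted p = 0.0215, adjusted p = 1), an 8.03-fold difference. Ppbp (ENSMUSG00000029372, chr5:90768518-90770063, plus strand), which lies beside Pf4 and encodes pro-platelet basic protein, had 0.958 and 2.47 CPM in MxCre, 12.6 and 4.0 CPM in Ptpn11D61Y/+ and 4.85, 12.5 and 3.40 CPM in S3. Every S3 and Ptpn11D61Y/+ library lay above both MxCre libraries, but libraries of 1 group differed by several fold, and the log2 fold change of S3 against MxCre was 2.01 (standard error 1.55).

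The fibrinogen receptor pair followed with smaller and tighter differences. Itga2b (ENSMUSG00000034664, chr11:102453297-102470122, minus strand), which encodes the alphaIIb chain, had 126 and 133 CPM in MxCre LSK cells, 235 and 203 CPM in Ptpn11D61Y/+ and 246, 242 and 186 CPM in S3. Itgb3 (ENSMUSG00000020689, chr11:104608000-104670476, plus strand), which encodes the beta3 chain, had 27.2 and 26.1 CPM in MxCre, 99.4 and 58.3 CPM in Ptpn11D61Y/+ and 51.9, 56.9 and 42.0 CPM in S3. For both genes each MxCre library lay below every other LSK library. Against MxCre, S3 stood 1.73-fold higher for Itga2b (log2 fold change 0.79, standard error 0.57) and 1.88-fold higher for Itgb3 (0.91, standard error 0.56). The Ptpn11D61Y/+ libraries stood 1.69-fold higher for Itga2b and 2.96-fold higher for Itgb3 (log2 fold change 1.56, standard error 0.61, unadjusted p = 0.0204, adjusted p = 1).

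The subunits of the GPIb-IX-V complex come next, and differences between them were not tested. Gp5 (ENSMUSG00000047953, chr16:30307685-30310779, minus strand), which encodes glycoprotein V, had 6.76 and 5.58 CPM in MxCre LSK cells, 13.7 and 12.8 CPM in Ptpn11D61Y/+ and 21, 22.3 and 13.6 CPM in S3. Gp9 (ENSMUSG00000030054, chr6:87778072-87779768, plus strand), which encodes glycoprotein IX, had 6.87 and 5.37 CPM in MxCre, 11.9 and 10.3 CPM in Ptpn11D61Y/+ and 8.69, 8.09 and 5.82 CPM in S3. Gp9 was the 1 member whose S3 libraries overlapped the MxCre libraries, with a log2 fold change of 0.30 (standard error 0.86), beside 1.62 (standard error 1.39) for Gp5. Gp1bb (ENSMUSG00000050761, chr16:18620317-18622403, minus strand), which encodes the beta chain of glycoprotein Ib, had 1.12 and 0.989 CPM in MxCre, 4.01 and 2.44 CPM in Ptpn11D61Y/+ and 3.85, 4.30 and 2.63 CPM in S3, with a log2 fold change of 1.77 (standard error 1.06) for S3. The count of Gp1bb is uncertain, since 1902 of its 2087 exon bases are shared with Sept5 on the same strand.

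The other 3 members cover the collagen receptor, the granule receptor and von Willebrand factor. Gp6 (ENSMUSG00000078810, chr7:4363965-4397744, minus strand), which encodes glycoprotein VI, was the scarcest, with 3 and 10 counts in MxCre LSK cells, 57 and 15 in Ptpn11D61Y/+ and 15, 41 and 19 in S3. Treml1 (ENSMUSG00000023993, chr17:48359916-48367176, plus strand), which encodes TLT-1, had 2.46 and 2.79 CPM in MxCre, 7.11 and 4.89 CPM in Ptpn11D61Y/+ and 8.01, 11.5 and 5.28 CPM in S3, a log2 fold change of 1.66 (standard error 1.52) for S3. Vwf (ENSMUSG00000001930, chr6:125546774-125686679, plus strand) had 42.8 and 27.3 CPM in MxCre, 190 and 133 CPM in Ptpn11D61Y/+ and 104, 72.4 and 76.8 CPM in S3. For Vwf the 3 groups did not overlap, and, as for Itgb3 and Gp9, both Ptpn11D61Y/+ libraries lay above every S3 library, whereas for Pf4 they lay below every S3 library. The difference between Ptpn11D61Y/+ and S3 was not tested. How many of all genes separate Ptpn11D61Y/+ from S3, or all 3 groups as for Vwf and Pf4, was not counted. Against MxCre, the log2 fold change of Vwf was 2.20 (standard error 0.63, unadjusted p = 0.0029, adjusted p = 0.609) for Ptpn11D61Y/+ and 1.27 (standard error 0.57, unadjusted p = 0.0416, adjusted p = 1) for S3.

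**Figure D2:**
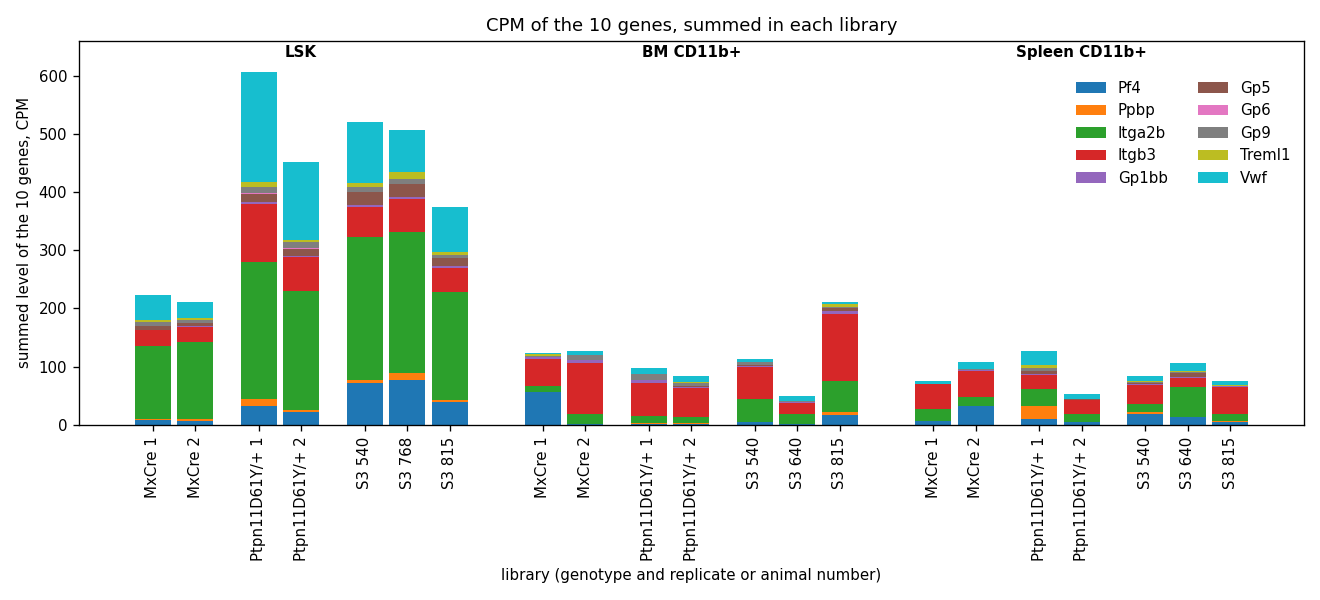
CPM of the 10 genes stacked in each of the 21 libraries (horizontal axis: genotype and replicate or animal number, in 3 blocks by cell fraction; vertical axis: summed CPM; colours: genes). The 7 LSK libraries sum to between 211 and 606 CPM and the CD11b+ libraries to between 48.6 and 210 CPM.

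In LSK cells, the quasi-likelihood test of edgeR (Benjamini-Hochberg adjusted) called 0 of the 10 genes between S3 and MxCre and 0.0307% of all genes. At an unadjusted p under 0.05 it held 2 of the 10 (Pf4 and Vwf), beside 3.97% of all genes, and DESeq2 called 0 of the 10, beside 0.655%. Between Ptpn11D61Y/+ and MxCre, it called 0 of the 10 and 0.0614% of all genes, with 2 of the 10 at an unadjusted p under 0.05 (Itgb3 and Vwf), beside 1.69%, while DESeq2 called 0, beside 0.527%. A fit of only the libraries of the comparison, which estimates the spread from LSK cells alone, gave other counts. It called 7 of the 10 genes higher in S3 than in MxCre (Pf4, Itga2b, Itgb3, Gp1bb, Gp5, Treml1 and Vwf), beside 23.3% of the 19471 genes it tested, with adjusted p-values of 0.0116 for Pf4, 0.0099 for Itga2b and 0.0362 for Vwf. It called 6 of the 10 higher in Ptpn11D61Y/+ (Pf4, Itga2b, Gp1bb, Gp5, Gp9 and Treml1), beside 13.4% of 19437 genes. Against the mean of both control genotypes, the median of the 10 for S3 was 0.81, and Pf4 kept a log2 fold change of 2.10 (standard error 0.88) where Vwf had 0.17 (standard error 0.46).

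Markers of LSK cells and of other cell types were summed in the LSK libraries as well. The 6 LSK markers summed to 1490 and 1577 CPM in MxCre and 1319 and 1472 CPM in Ptpn11D61Y/+. In S3 they summed to 1150, 1012 and 1086 CPM (labelled 540, 768 and 815), below every control library. Of these 6, 0 were called between S3 and MxCre or between Ptpn11D61Y/+ and MxCre. EdgeR called 0 of 5 basophil and mast cell, 0 of 7 CD11b+ myeloid and 1 of 8 erythroid markers between S3 and MxCre, and 0, 1 and 0 of them between Ptpn11D61Y/+ and MxCre, where 0.0307% and 0.0614% of all genes were called. The 2 called were Hbb-bs and Ly6g, both lower than in MxCre. Basophil and mast cell markers (Cpa3, Mcpt8, Ms4a2, Gata2 and Prss34), all 5 of which had over 3 counts in every LSK library, summed to 235 and 220 CPM in MxCre, 385 and 490 CPM in Ptpn11D61Y/+ and 1364, 939 and 827 CPM in S3, with Prss34 the most abundant in S3 and Gata2 in the controls. The 8 erythroid markers summed to 1312 and 731 CPM in MxCre, 173 and 124 CPM in Ptpn11D61Y/+ and 265, 205 and 188 CPM in S3, with Hbb-bs the most abundant in MxCre and Tfrc in the other groups. The 7 CD11b+ myeloid markers summed to 2025 and 1653 CPM in MxCre, 447 and 384 CPM in Ptpn11D61Y/+ and 773, 1258 and 1769 CPM in S3. The 4 macrophage markers (Adgre1, C1qa, C1qb and Vcam1) summed to 61.7 and 78.5 CPM in MxCre and 23.0 and 17.5 CPM in Ptpn11D61Y/+. They summed to 80.1, 80.7 and 64.6 CPM in S3, and 0 of 4 were called in either comparison. The 6 endothelial markers, of interest for Vwf, summed to between 137 and 176 CPM in all 7 LSK libraries, with Pecam1 the most abundant. The part of these cells in the differences of the 10 genes was not tested. In these bulk libraries, more cells of a type and more RNA per cell cannot be told apart.

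**Figure D3:**
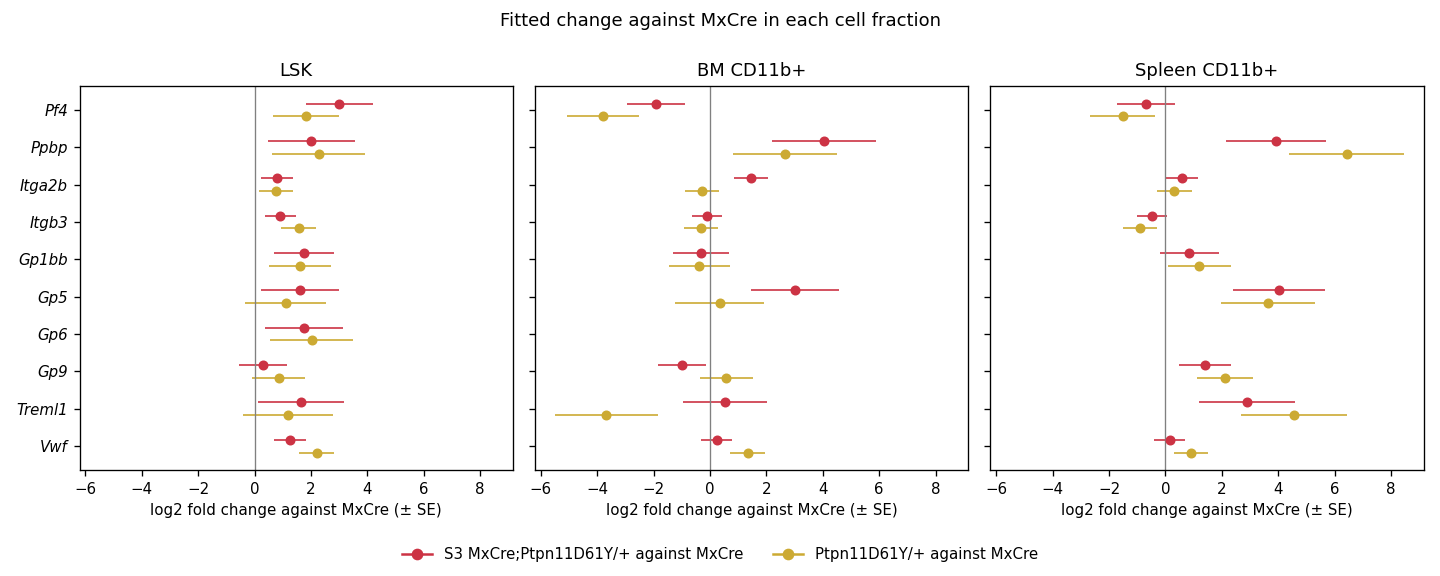
Fitted log2 fold change against MxCre (horizontal axis, points with standard error bars from edgeR) of each gene (vertical axis) in the 3 cell fractions, for S3 and for Ptpn11D61Y/+. Gp6 is not drawn where a group had at most 3 counts in every library. In LSK cells all 20 points lie to the right of 0, from 0.30 for Gp9 in S3 to 3.00 for Pf4 in S3, and in the CD11b+ fractions they lie on both sides.

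Itga2b and Vwf fell from LSK to CD11b+ cells in BM and spleen, in controls and in S3, and Itgb3 and Gp1bb were the members that passed in none of these comparisons in the fit of all libraries. Controls here are MxCre and Ptpn11D61Y/+, each with its own coefficient, and the contrast takes the mean of both. Comparing BM CD11b+ with LSK cells in controls, 6 of the 10 genes were called and all 6 were lower, where 48.8% of all genes were called and 26.4% were lower. In S3, 3 of the 10 were called, all lower, where 27.1% of all genes were called and 12.7% were lower. Comparing spleen CD11b+ with LSK cells, 4 were called lower in controls, where 52.5% of all genes were called and 28% were lower, and 2 in S3, where 27.4% were called and 11.6% were lower. The median log2 fold change of the 10 was -3.48 in controls and -2.36 in S3 for BM, and -2.48 and -2.25 for spleen, beside medians between -0.23 and 0.02 over all genes.

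Itga2b ran from 9.69 to 16.5 CPM in the 4 control libraries of BM CD11b+ cells and from 13.5 to 28.7 CPM in those of spleen CD11b+ cells, against 126 to 235 CPM in LSK cells. In S3 it had 40.2, 16.6 and 53.6 CPM in the BM fraction (labelled 540, 640 and 815), while the spleen libraries with the same labels had 13.4, 50.2 and 12.2 CPM. No CD11b+ library reached an LSK library of either genotype class. The fall from LSK to BM CD11b+ cells was 13.9-fold in controls (log2 fold change -3.80, standard error 0.48, adjusted p = 2.33e-05 from edgeR) and 6.11-fold in S3 (-2.61, standard error 0.53, adjusted p = 0.00257). To spleen CD11b+ cells the log2 fold change was -3.16 in controls (standard error 0.47) and -3.15 in S3 (standard error 0.54), with adjusted p-values of 8.18e-05 and 0.000721.

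Vwf was also called lower in both CD11b+ fractions, in controls and in S3, and each CD11b+ library lay below every LSK library. It had 2.05 and 6.04 CPM in MxCre, 9.75 and 10.7 CPM in Ptpn11D61Y/+ and 3.78, 7.91 and 2.58 CPM in S3 in BM CD11b+ cells. In spleen CD11b+ cells it had 5.51 and 11.9 CPM in MxCre, 23.8 and 8.78 CPM in Ptpn11D61Y/+ and 7.81, 14.1 and 7.04 CPM in S3. Against LSK cells the log2 fold change was -3.54 in BM controls (standard error 0.47, adjusted p = 3.71e-05), -4.14 in BM S3 (standard error 0.56, adjusted p = 0.000136), -2.66 in spleen controls and -3.13 in spleen S3 (adjusted p = 0.000257 and 0.000709). The 6 endothelial markers summed to between 50.2 and 186 CPM in BM CD11b+ libraries and between 70.3 and 203 CPM in spleen CD11b+ libraries. These sums overlap those of LSK cells, with Pecam1 the most abundant in every library. EdgeR called 3 of the 6 lower than in LSK cells in BM controls and 2 in BM S3, beside 26.4% and 12.7% of all genes. It called 3 lower in spleen controls and 3 in spleen S3, beside 28% and 11.6%. In each case 0 were called higher. The part of endothelial cells in the level of Vwf was not tested.

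Itgb3 followed another pattern from its partner chain. It had 45.8 and 87.3 CPM in MxCre, 57.1 and 50.3 CPM in Ptpn11D61Y/+ and 53.6, 18.5 and 114 CPM in S3 in BM CD11b+ cells, and 43.0 and 45.8 CPM, 24.1 and 23.7 CPM, and 33.3, 16.4 and 46.0 CPM in spleen CD11b+ cells. These ranges overlap the LSK range of 26.1 to 99.4 CPM. The log2 fold change against LSK cells was 0.38 and 0.30 in BM (controls and S3, standard errors 0.42 and 0.49) and -0.49 and -0.66 in spleen (standard errors 0.42 and 0.49). That Itgb3 missed the threshold does not show equal levels. It was called lower in spleen controls in the fit of only these groups (-0.49, adjusted p = 0.0498) and with library size alone as the scaling (-1.32, adjusted p = 0.00687), and in spleen S3 with library size alone (-1.34, adjusted p = 0.0282).

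Among the GPIb-IX-V subunits, Gp5 was called lower than in LSK cells in both CD11b+ fractions of controls, and Gp9 in that of the spleen. Gp5 had 0 and 19 counts in MxCre, 12 and 24 in Ptpn11D61Y/+ and 66, 21 and 124 in S3 in BM CD11b+ cells, where LSK libraries had 587 to 2990. In controls it fell by 4.92 on the log2 scale from LSK to BM CD11b+ cells (standard error 1.22, adjusted p = 0.00424) and by 3.84 to spleen CD11b+ cells (standard error 1.16, adjusted p = 0.0121). In S3 the corresponding values were -3.16 (standard error 1.28, adjusted p = 0.0759) and -2.69 (standard error 1.25, adjusted p = 0.119), which did not pass, while DESeq2 called Gp5 lower in both (adjusted p = 0.025 and 0.0479). Gp9 kept levels of 2.46 and 9.09 CPM in MxCre, 10.8 and 6.47 CPM in Ptpn11D61Y/+ and 5.34, 0.636 and 2.81 CPM in S3 in BM CD11b+ cells, which overlap the LSK levels in controls. In spleen CD11b+ cells it had 0.381 and 0.894 CPM in MxCre, 4.94 and 0.559 CPM in Ptpn11D61Y/+ and 2.35, 1.93 and 0.802 CPM in S3. In controls Gp9 fell by 2.63 on the log2 scale from LSK to spleen CD11b+ cells (standard error 0.71, adjusted p = 0.0064), and its value from LSK to BM CD11b+ cells was -0.22 (standard error 0.67). In S3 the value for spleen was -2.15 (standard error 0.80, adjusted p = 0.0567), which missed the threshold here and passed it with DESeq2 (adjusted p = 0.00947), RLE size factors (0.0455), library size alone (0.0195) and the fit of only these groups (0.0221). Leaving out 1 library at a time moved the Gp5 value in controls between -8.61 and -4.46 for BM CD11b+ cells, with the call kept each time. The largest size was without BM MxCre replicate 2, where the 1 MxCre library left had 0 counts. For spleen CD11b+ cells it moved between -7.24 and -3.36, and the call was lost without spleen Ptpn11D61Y/+ replicate 2. Gp1bb was not called in any comparison of fractions in the fit of all libraries, with log2 fold changes from -1.31 to 1.06 against LSK cells. Other fits did call it, higher in BM CD11b+ than in LSK cells of controls in the fit of only these groups (1.04, adjusted p = 0.0306) and without the libraries with few genes detected (1.17, adjusted p = 0.0273), and lower in spleen than in BM CD11b+ cells of controls with DESeq2 (-1.73, adjusted p = 0.0496). Without spleen MxCre replicate 2, where the 1 MxCre library left had 0 counts of it, Gp1bb was called lower in the spleen fraction of controls than in LSK and in BM CD11b+ cells.

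The chemokines, the granule receptor and the collagen receptor were called in fewer comparisons, and most of these calls depended on single libraries. Pf4 had 56.1 and 1.62 CPM in MxCre, 2.06 and 2.11 CPM in Ptpn11D61Y/+ and 4.55, 1.75 and 16.97 CPM in S3 in BM CD11b+ cells. It was called lower than in LSK cells in S3 (log2 fold change -3.01, standard error 1.004, adjusted p = 0.0363). That call was lost with the animal number as a replicate block (-2.73, adjusted p = 0.133), and in 5 of the 6 fits that left out 1 library. In controls its value was -0.90 (standard error 0.81). It became -2.98 (adjusted p = 0.00133) without the 3 libraries with few genes detected, which include BM MxCre replicate 1. Ppbp was called lower in BM CD11b+ than in LSK cells in controls (-3.71, standard error 1.28, adjusted p = 0.0259), with 0 and 8 counts in MxCre and 34 and 44 in Ptpn11D61Y/+. Treml1 was called as well (-3.41, standard error 1.25, adjusted p = 0.0336), with 72 and 0 counts in MxCre and 8 and 3 in Ptpn11D61Y/+, and lost its call with the replicate block (-3.70, adjusted p = 0.0586). Gp6 had 0, 0, 2 and 0 counts in the control libraries of BM CD11b+ cells and 3, 10, 57 and 15 in those of LSK cells, and was called lower (adjusted p = 0.0385), with no fold given at these counts. Leaving out 1 of the 8 libraries at a time removed the call of Treml1 in 7 cases, that of Ppbp in 5 and that of Gp6 in 5, and none of the calls of Itga2b, Vwf or Gp5. The call of Gp6 was also lost without the libraries with few genes detected (adjusted p = 0.0775) and without those with both Xist and Ddx3y (adjusted p = 0.109). Other calls were gained. Without the libraries with few genes detected, Ppbp (-4.91), Gp5 (-4.48) and Treml1 (-4.11) were called lower in BM CD11b+ than in LSK cells of S3, beside Pf4 at -4.31, and Treml1 (-2.23, adjusted p = 0.0301) in spleen CD11b+ cells of controls. Without the libraries with both Xist and Ddx3y, Pf4 was called in S3 as lower in CD11b+ cells of the spleen than in LSK cells (-2.81, adjusted p = 0.0448). With no library left out, Pf4 was not called there in the TMM-scaled edgeR fit of all groups, but it was called lower with DESeq2 (-2.45, adjusted p = 0.0261), library size alone (-2.95, adjusted p = 0.0319) and the fit of only these groups (-2.32, adjusted p = 0.0261), and Treml1 with DESeq2 (-3.26, adjusted p = 0.0285) and the fit of only these groups (-3.13, adjusted p = 0.0104).

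**Figure D4:**
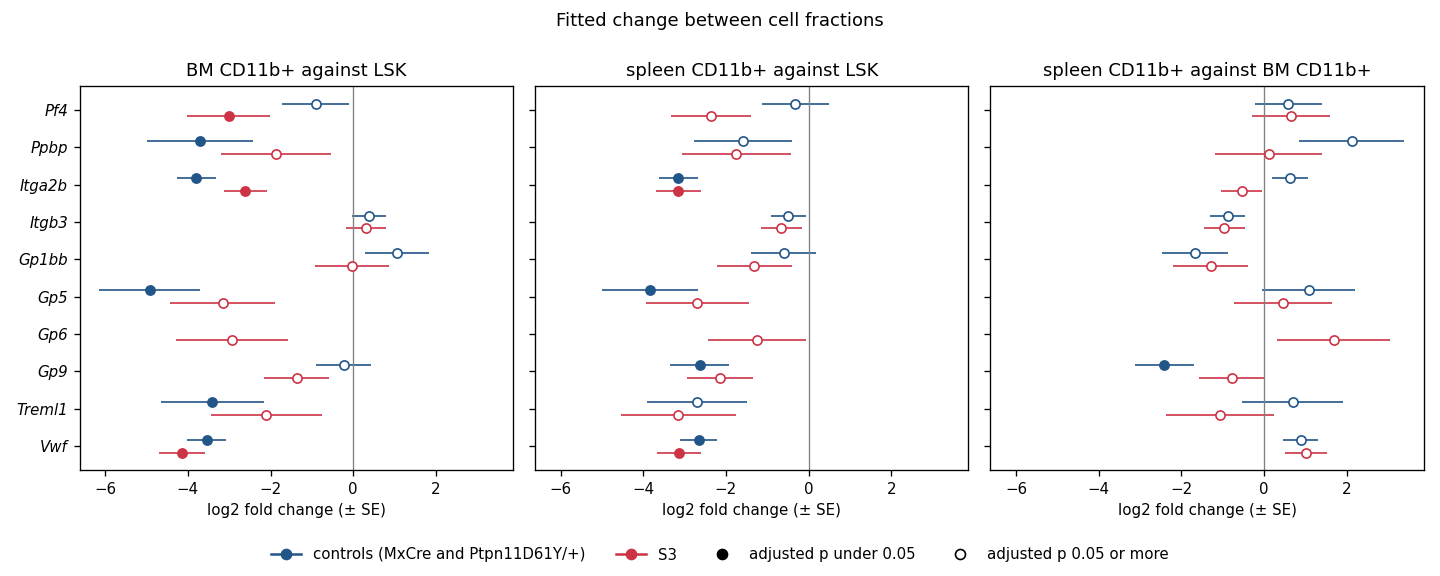
Fitted log2 fold change between cell fractions (horizontal axis, points with standard error bars from edgeR) of each gene (vertical axis), in controls (MxCre and Ptpn11D61Y/+) and in S3. Filled points passed an adjusted p under 0.05, and Gp6 is not drawn where a group had at most 3 counts in every library. Itga2b and Vwf are filled in both comparisons with LSK cells, whereas Itgb3 is filled in none, at 0.38 and 0.30 for BM and -0.49 and -0.66 for spleen (controls and S3).

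Between the CD11b+ fractions of spleen and BM, 1 of the 10 was called in controls, where 9.97% of all genes were called and 5.83% were lower: Gp9 was lower in spleen (log2 fold change -2.41, standard error 0.71, adjusted p = 0.0414), although spleen Ptpn11D61Y/+ replicate 1 at 4.94 CPM exceeded BM MxCre replicate 1 at 2.46 CPM. That call was lost in 6 of the 8 fits that left out 1 library. It was also lost without the libraries that hold both Xist and Ddx3y (-1.80, adjusted p = 0.159) and without those with few genes detected (-2.50, adjusted p = 0.0612), where Pf4 (3.03) and Treml1 were called higher in spleen, with 0 counts of Treml1 in the 1 BM MxCre library left. In S3 edgeR called 0 of the 10 and 0.0563% of all genes, with 0 of the 10 at an unadjusted p under 0.05, beside 9.77%, and DESeq2 called 0, beside 2.82%. With the replicate block, edgeR called 0 of the 10 and 1 of all genes. Within each of the labels 540, 640 and 815, spleen lay above BM for Vwf and Gp6 and below it for Itgb3 and Gp1bb. Gp6 had at most 7 counts in these libraries. The median of the 10 was 0.67 in controls and -0.21 in S3. As single libraries were left out, it moved between -0.99 and 1.03 in controls and between -0.77 and 0.84 in S3.

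In BM CD11b+ cells, S3 was compared with MxCre. The 10 genes did not move together, with 6 above and 4 below 0 and a median log2 fold change of 0.38, beside 0.18 over all genes. Leaving out 1 library at a time moved this median between -0.12 and 1.61. For 1 gene, Itga2b, the groups did not overlap, beside 5.74% of all genes with every S3 library above MxCre, and the library of animal 640 was almost level with the higher MxCre library, at 40.2, 16.6 and 53.6 CPM against 10.3 and 16.5 CPM (log2 fold change 1.46, standard error 0.59, unadjusted p = 0.0244, adjusted p = 0.273). Animal 815 had the highest level of Ppbp (5.31 CPM), Gp5 (4.71 CPM), Treml1 (4.90 CPM) and Itgb3 (114 CPM) among the BM CD11b+ libraries, and is 1 of the 3 libraries with few genes detected. EdgeR called 0 of the 10 and 0% of all genes, with 2 of the 10 (Ppbp and Itga2b) at an unadjusted p under 0.05, beside 15.5%, and DESeq2 called 0 of the 10, beside 4.93%.

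Pf4 stood apart in BM MxCre replicate 1. Its 56.1 CPM there stood against 1.62 CPM in the other MxCre library, and the same library had 10960 CPM over the 4 macrophage markers (Adgre1, C1qa, C1qb and Vcam1, with C1qa the most abundant), against 346 CPM in replicate 2, 266 and 283 CPM in Ptpn11D61Y/+ and 1118, 1838 and 1535 CPM in S3. It also had 72 counts of Treml1, against 0 in replicate 2, but 0 counts of Ppbp, Gp5 and Gp6. Between Ptpn11D61Y/+ and MxCre, Pf4 had a log2 fold change of -3.79 (standard error 1.28, unadjusted p = 0.0091, adjusted p = 0.167) and Vwf one of 1.33 (standard error 0.62, unadjusted p = 0.0468). For Vwf and Ppbp both Ptpn11D61Y/+ libraries lay above both MxCre libraries, as they did for 38.7% of all genes. EdgeR called 0 of the 10 and 0% of all genes, with 2 of the 10 (Vwf and Pf4) at an unadjusted p under 0.05, beside 22.6%, and DESeq2 called 1 of the 10, Pf4 (-3.98, adjusted p = 0.0154), beside 9.53%. Without BM MxCre replicate 2, which leaves 1 MxCre library assumed to vary like the other groups, edgeR called Pf4 as well. Without the libraries with few genes detected, which include BM MxCre replicate 1, the value of Pf4 turned to 0.37 for Ptpn11D61Y/+ and from -1.90 to 0.95 for S3. In spleen CD11b+ cells the 4 macrophage markers summed to 4172 and 3451 CPM in MxCre, where Pf4 had 6.505 and 32.8 CPM. They summed to 3253 and 1614 CPM in Ptpn11D61Y/+, where Pf4 had 9.43 and 4.33 CPM. In S3 (labelled 540, 640 and 815) they summed to 5046, 2834 and 5769 CPM, where Pf4 had 18.7, 13.3 and 4.41 CPM. The part of macrophages in the level of Pf4 was not tested.

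In spleen CD11b+ cells, several members that were at or near 0 in MxCre had counts in S3 and in Ptpn11D61Y/+. Ppbp had 0 and 12 counts in MxCre, 1381 and 56 in Ptpn11D61Y/+ and 211, 65 and 110 in S3 (labelled 540, 640 and 815). Treml1 had 0 and 11 counts, 337 and 26, and 100, 64 and 25 in the same order. Gp5 had 0 and 16 counts, 252 and 21, and 93, 580 and 28. For Ppbp and Treml1 both other genotypes lay above both MxCre libraries on the CPM scale, and for Gp5 the S3 libraries did, where 20.2% of all genes lay so for S3 and 34.5% for Ptpn11D61Y/+. Gp6 had 0 counts in both MxCre libraries, 44 and 1 in Ptpn11D61Y/+ and 7, 6 and 4 in S3. A count of 0 allows up to 0.0762 CPM in spleen MxCre replicate 1, taking 3 counts as the limit for counting error. The 0 counts of Ppbp, Treml1 and Gp5 were all in that library, which had few genes detected (14641). It had 5 of the 10 genes at 0, against 1 in replicate 2.

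The log2 fold change of S3 against MxCre was 3.92 for Ppbp (standard error 1.79, unadjusted p = 0.0433, adjusted p = 0.184) and 4.03 for Gp5 (standard error 1.64, unadjusted p = 0.0255, adjusted p = 0.146). With 1 MxCre library at 0, these sizes moved between 2.96 and 10.3 for Ppbp and between 2.46 and 10.8 for Gp5 as single libraries were left out. The highest Gp5 and Itga2b of the S3 spleens, 6.83 and 50.2 CPM, were those of animal 640, whose library also had 8772 counts of Gata1 and 24350 CPM over the 8 erythroid markers, the highest of the spleen libraries. EdgeR called 0 of the 10 between S3 and MxCre and 4.19% of all genes, with 3 of the 10 (Ppbp, Gp5 and Gp6) at an unadjusted p under 0.05, beside 25.3%. DESeq2 called 2 of the 10, Ppbp (3.97, adjusted p = 0.039) and Gp5 (4.11, adjusted p = 0.0204), beside 17.4%. The median of the 10 was 1.13, beside 0.32 over all genes. It moved between 0.89 and 3.96 as single libraries were left out. The erythroid markers in these libraries summed to 2004 and 821 CPM in MxCre and to 10950, 24350 and 10150 CPM in S3. The 5 basophil and mast cell markers summed to 28.6 and 5.30 CPM in MxCre and to 114, 58.7 and 126 CPM in S3. EdgeR called 2 of the 8 erythroid and 1 of the 5 basophil and mast cell markers higher, beside 4.19% of all genes. Their part in the values of the 10 genes was not tested.

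Between Ptpn11D61Y/+ and MxCre, the spleen values rested on replicate 1 of Ptpn11D61Y/+. Its 22.5 CPM of Ppbp, 5.48 CPM of Treml1, 4.94 CPM of Gp9 and 23.8 CPM of Vwf stood against 0.921, 0.428, 0.559 and 8.78 CPM in replicate 2. This library had 4753 counts of Xist and 0 of Ddx3y, while the BM and LSK libraries with the same number had 1 and 17 of Xist and 1113 and 7357 of Ddx3y, so that the number does not stand for 1 animal. Ppbp had a log2 fold change of 6.43 (standard error 2.04, unadjusted p = 0.006, adjusted p = 0.0735) and Treml1 one of 4.57 (standard error 1.89, adjusted p = 0.15). Without replicate 1, which leaves 1 library assumed to vary like the other groups, they were 2.81 for Ppbp and 1.83 for Treml1, and Gp9 went from 2.10 to -0.16. Some markers of other cell types differed from MxCre in both Ptpn11D61Y/+ libraries, not in replicate 1 alone. The 7 CD11b+ myeloid markers summed to 8681 and 12370 CPM in replicates 1 and 2 of Ptpn11D61Y/+ (2 of 7 called lower). They summed to 42950 and 94450 CPM in MxCre and 61160, 24610 and 27910 CPM in S3. The 4 B cell markers summed to 1211 and 1895 CPM in replicates 1 and 2 of Ptpn11D61Y/+ (2 of 4 called higher), against 195 and 88.7 CPM in MxCre. Their part in the result was not tested. Itgb3 went the other way, with both Ptpn11D61Y/+ libraries below both MxCre libraries (log2 fold change -0.89, standard error 0.60). How many of all genes lay below MxCre in this way was not counted. EdgeR called 0 of the 10 and 5.11% of all genes, with 4 of the 10 (Ppbp, Gp5, Gp6 and Treml1) at an unadjusted p under 0.05, beside 24.7%, and DESeq2 called 3 of the 10 higher (Ppbp, Gp6 and Treml1), beside 17.3%.

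The difference of the S3 against MxCre change between fractions was tested in the same fit. EdgeR called 0 of the 10 between BM CD11b+ and LSK cells and 0% of all genes, with 1 of the 10 at an unadjusted p under 0.05, beside 8.12%, and DESeq2 called 0, beside 0.721%. Between spleen CD11b+ and LSK cells it called 0 of the 10 and 0.00511% of all genes, with 1 of the 10 at an unadjusted p under 0.05, beside 13.4%, and DESeq2 called 0, beside 4.23%. Between spleen and BM CD11b+ cells it called 0 of the 10 and 0% of all genes, with 0 of the 10 at an unadjusted p under 0.05, beside 10.7%, and DESeq2 called 0, beside 2.71%. The 1 gene in both comparisons with LSK cells was Pf4. Its log2 fold change for S3 against MxCre was 3.00 in LSK, -1.90 and -0.70 in CD11b+ cells of BM and spleen, none of them called and with overlapping groups in the CD11b+ fractions. The difference was -4.91 for BM (standard error 1.56, unadjusted p = 0.0063, adjusted p = 0.609) and -3.70 for spleen (standard error 1.52, unadjusted p = 0.0271, adjusted p = 0.328). The BM value includes the high Pf4 level of BM MxCre replicate 1, and became -2.05 without the libraries with few genes detected, while the spleen value then became -4.44 and was called (adjusted p = 0.0366), both against 1 MxCre library in the CD11b+ fraction that was assumed to vary like the other groups.

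Other genes of the lineage taken from 3 lists had smaller medians than the 10 genes in LSK cells. The 7 transcription factors (Gata1, Gfi1b, Fli1, Runx1, Nfe2, Zfpm1 and Tal1) had a median log2 fold change of 0.001 for S3 against MxCre in LSK cells, the 11 other receptors and signalling genes one of 0.27 and the 15 granule, cytoskeleton and enzyme genes one of -0.17, with 0 genes called by edgeR in each list. For Ptpn11D61Y/+ against MxCre the medians were 0.205, 0.327 and 0.807, with 11 of the 15 granule genes above 0 and again 0 called. At an unadjusted p under 0.05 there were 2 of these 33 genes for S3, beside 3.97% of all genes, and 1 for Ptpn11D61Y/+ (Thbs1, lower), beside 1.69%. P2ry1, a platelet receptor for ADP, had 2.89 and 2.89 CPM in MxCre and 11.6, 11.2 and 8.91 CPM in S3 (log2 fold change 1.87, standard error 0.61, adjusted p = 0.846). F2rl2, a thrombin receptor, had 1.99 and 2.55 CPM in MxCre and 10.4, 12.8 and 7.38 CPM in S3 (2.17, standard error 0.91, adjusted p = 1). Mmrn1, an alpha-granule protein, had 45.0 and 39.6 CPM in MxCre, 139 and 113 CPM in Ptpn11D61Y/+ and 42.8, 16.9 and 19.7 CPM in S3.

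Between BM CD11b+ and LSK cells in controls, the receptor list held 3 genes called higher and 6 lower of 11, and the granule list 4 higher and 4 lower of 15, where 48.8% of all genes were called and 26.4% were lower. Among the genes called lower were Gp1ba, the alpha chain of glycoprotein Ib (log2 fold change -1.97, standard error 0.62), the thrombin receptors F2rl2 and F2rl3, Itga2, Tbxa2r, the adhesion receptor Selp (-3.76, standard error 0.59), Mmrn1, Rab27b and Mylk. The genes called higher were P2ry12, Clec1b, Rasgrp2, Thbs1 (4.22, standard error 0.72), F5, Serpine2 and Ptgs1. Clec1b, a receptor of platelets and of some myeloid cells, had 79.5 CPM in BM MxCre replicate 1 and 3.10 CPM in replicate 2, the same order as Pf4. Of the transcription factors, 2 of 7 were called higher in BM CD11b+ cells (Gata1 and Nfe2), which also act in erythroid cells. In S3 the same comparison called 4 receptors lower (among them Gp1ba, F2rl2 and F2rl3) and 5 granule and cytoskeleton genes lower (Tubb1, Selp, Mmrn1, Rab27b and Mylk), and 2 of the latter list higher (Thbs1, 2.62, standard error 0.77, and F5, 2.22, standard error 0.59), where 27.1% of all genes were called and 12.7% were lower.

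Spleen CD11b+ cells gave 0 receptors called higher and 0 lower for S3 against MxCre, and 1 of 15 granule genes in each direction, where 4.19% of all genes were called. Rab27b, a granule secretion factor, had 0 counts in both MxCre libraries and 26, 54 and 18 in S3, and Mylk was lower (log2 fold change -2.29, standard error 0.44, adjusted p = 0.0111). Of the transcription factors, 1 of 7, Runx1, was lower (-1.05, standard error 0.28, adjusted p = 0.0466). For Ptpn11D61Y/+ against MxCre, where 5.11% of all genes were called, Runx1 (-1.22, standard error 0.32) and Nfe2 (-2.41, standard error 0.60) were lower, and Tbxa2r, the thromboxane receptor, was higher (4.59, standard error 1.16, adjusted p = 0.0352). Mmrn1 and Rab27b were called higher against 0 counts in both MxCre libraries, with 162 and 3 counts and 107 and 19 counts in Ptpn11D61Y/+. Tubb1, the tubulin of platelets, had 550 counts in replicate 1 of Ptpn11D61Y/+ and 32 in replicate 2, the library order of Ppbp and Treml1.

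Between genes, levels were compared by exon length, as RPKM (CPM divided by the kilobases of exon in the gene). In LSK cells of MxCre mice the order was Itga2b at 23.7 ± 0.87 RPKM (SD, n = 2), Pf4 at 10.7 ± 1.004, Gp9 at 6.95 ± 1.20, Itgb3 at 4.52 ± 0.127, Gp5 at 2.81 ± 0.381, Vwf at 2.18 ± 0.682, Treml1 at 1.87 ± 0.166, Ppbp at 1.58 ± 0.988, Gp1bb at 0.506 ± 0.0452 and Gp6 at 0.0101 ± 0.00845. Gp5, Vwf, Treml1 and Ppbp were each within the spread of a neighbour. In S3 LSK cells Pf4 came first at 86.2 ± 28.7 RPKM (SD, n = 3), above Itga2b at 41.2 ± 6.13, and Gp5, Gp9 and Itgb3 followed between 8.52 and 8.64 RPKM, within each other's spread. In Ptpn11D61Y/+ LSK cells Itga2b at 40.2 ± 4.07 and Pf4 at 37.6 ± 10.5 RPKM (SD, n = 2) were within each other's spread. In single BM CD11b+ libraries, Itgb3 came first in 4 of 7, Pf4 in 2 and Gp9 in 1, and in spleen Pf4 came first in 5 of 7, Ppbp in 1 and Itgb3 in 1. By group mean, Pf4 led in BM MxCre and S3, where single libraries carried it, and Gp9 at 9.80 ± 3.47 and Itgb3 at 9.10 ± 0.818 RPKM (SD, n = 2) were within each other's spread in BM Ptpn11D61Y/+. The SD of the leading gene exceeded its mean in BM MxCre (Pf4, 40.01 ± 53.4), BM S3 (Pf4, 10.75 ± 11.2) and spleen Ptpn11D61Y/+ (Ppbp, 10.8 ± 14.1). Gp6 was last in each of the 9 groups.

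The members did not follow each other equally over the 21 libraries. The Pearson correlation of each member's log2 CPM with the mean of the other 9 was 0.863 for Gp5, 0.792 for Itga2b, 0.776 for Treml1, 0.773 for Ppbp and 0.744 for Vwf, and it was 0.65 for Gp6 and Gp9, 0.531 for Pf4, 0.458 for Gp1bb and 0.178 for Itgb3. These values are descriptions over 21 libraries that share 3 fractions and 9 groups. With group means subtracted, they were 0.766 for Gp5, 0.749 for Ppbp, 0.723 for Gp9, 0.686 for Gp1bb and 0.425 for Itga2b. The remaining members had 0.403 (Treml1), 0.344 (Pf4), 0.299 (Gp6), 0.256 (Itgb3) and 0.208 (Vwf). Outside the 10 genes, the pattern most like their mean among 11050 candidates was that of Gp1ba (r = 0.902), followed by 4632404H12Rik (0.894), Ide (0.876) and Cfap97 (0.873). After the mean of each group was subtracted, Agap1 (0.869), Scamp1 (0.858), Sdsl (0.858) and Rhag (0.845) came first, and Gp1ba was not among the first 10.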

How the data were processed

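RNA-seq libraries of LSK, BM CD11b+ and spleen CD11b+ cells were analysed from the whole-number counts per gene that the authors deposited, 1 table per library with 45706 Ensembl genes. Per the submitters' processing notes, bcl2fastq 2.20.0.422, FastQC 0.11.9, Trim Galore 0.6.5, STAR 2.5.3a and limma were used with build mm10. The counting program, annotation release and use of strand are not given in the sources used here, so that overlapping genes may share reads. A symbol was found for 45143 of the genes. Library totals of 34992610 to 104509425 differ 2.99-fold. The study's methods speak of 3 mice per genotype for CD11b+ cells. The labels give 2 MxCre libraries per fraction and do not name the animal of a control library, so that p-values measure the spread between these libraries.

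The counts were filtered with filterByExpr over the 9 groups (minimum count 10, minimum total 15), which kept 19555 genes. They were scaled by TMM and fitted over all 21 libraries with the quasi-likelihood test of edgeR 4.0.16 (robust) in R 4.3.3 with limma 3.58.1, with adjustment over all genes tested by Benjamini-Hochberg. A gene was called at an adjusted p under 0.05. CPM were taken from normalized library sizes, log2 CPM with a prior count of 2, and RPKM with union exon lengths of GENCODE gene models on GRCm38, the build that mm10 names. Where no library of a group exceeded 3 counts, a gene was given as counts only. The script was tested on simulated data. The 10 genes, the 3 lists of other platelet genes and the marker lists were chosen with earlier results of these data known, and every one of the 10 was named in the text. The genes most like the mean of the 10 were taken by Pearson's r among genes with a mean log2 CPM over 1.

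The alternatives were DESeq2 1.42.0, other scalings, no filter, a prior count of 0.5, a fit of only the groups compared, a replicate block and leaving out each library. After seeing the data, 2 more were added: leaving out 3 libraries with over 100 counts of both Xist and Ddx3y, and the 3 with the fewest genes detected (14641 to 14885). S3 libraries were paired by the animal number in the labels, although Xist and Ddx3y counts show that 540 is not 1 animal. Their deviations from group means correlated with r from -0.11 to 0.66. Control replicates share only a number. Counting error intervals do not cover the spread between animals. Of the lists, 1 gene is not reported here by name. B cell, T cell and stromal markers were summed as well. In spleen CD11b+ libraries, the 4 B cell markers summed to 195 and 88.7 CPM in MxCre, 1211 and 1895 CPM in Ptpn11D61Y/+ and 828, 73.5 and 760 CPM in S3, the 4 T cell markers to at most 29.6 CPM and the 4 stromal markers to at most 7.46 CPM.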

Additional observations from a re-analysis of the deposited data

Results flagged for a closer look

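Itgb3 in Ptpn11D61Y/+ against MxCre pointed in opposite directions in 2 fractions. In spleen CD11b+ cells its log2 fold change was -0.892, with both Ptpn11D61Y/+ libraries (24.1 and 23.7 CPM) below both MxCre libraries (43.0 and 45.8 CPM). In LSK cells it was 1.56, with both Ptpn11D61Y/+ libraries (99.4 and 58.3 CPM) above both MxCre libraries (27.2 and 26.1 CPM). Neither value was called in edgeR's fit, and the difference was not tested. In LSK cells, 28.3% of all genes tested had both Ptpn11D61Y/+ libraries above both MxCre libraries. How many of all genes lay below MxCre in spleen, or did both, was not counted.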

How the results depend on the processing

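Of 240 values of called members under alternatives, 201 kept their call, 39 lost it and 0 changed sign. The calls of Itga2b and Vwf between LSK and CD11b+ cells were kept in every fit that left out 1 library. The number of the 10 genes called moved as follows, and the cause was not tested. The number of all genes called often moved with it. With only the groups compared in the fit it was 7 for S3 against MxCre and 6 for Ptpn11D61Y/+ against MxCre in LSK cells, 5 in S3 for spleen CD11b+ against LSK cells and 0 in controls for spleen against BM CD11b+ cells, with 5393 and 751 of all genes called in the last 2. With DESeq2 these last 2 were 6 and 2 (7108 and 3634 of all genes called, against 5349 and 1949 with edgeR), and the genotype counts in CD11b+ cells were 2 for S3 in spleen, 1 for Ptpn11D61Y/+ in BM and 3 for Ptpn11D61Y/+ in spleen. With library size alone as the scaling they were 5 and 0 (5901 and 1668 of all genes), and 1 for Ptpn11D61Y/+ in spleen, where the median of all genes moved from -0.19 to -1.15 between BM CD11b+ and LSK controls, and that of the 10 from -3.48 to -4.46. Without the libraries with both Xist and Ddx3y, the count was 1 for Ptpn11D61Y/+ in BM (Pf4; 2478 of all genes, against 0), against the 1 MxCre library left, replicate 1 with its 56.1 CPM of Pf4, and 0 for spleen against BM in controls (927). Without those with few genes detected, with 1 MxCre library left in each CD11b+ fraction, it was 6 for BM CD11b+ against LSK cells in S3 (6027 of all genes, against 5301), 2 for spleen against BM in controls (4036) and 1 for the difference between spleen CD11b+ and LSK cells. Smaller moves were seen as well. In controls, spleen CD11b+ against LSK cells went from 4 to 5 genes with DESeq2 and to 6 with library size alone and with only the groups compared. In S3, BM CD11b+ against LSK cells went from 3 to 4 with DESeq2 and library size alone and to 2 with no filter, which lost Pf4, and spleen CD11b+ against LSK cells from 2 to 3 with RLE size factors. With only the groups compared, the call of Treml1 for BM CD11b+ against LSK controls was lost and that of Gp1bb gained. Leaving out 1 library at a time gave 3 to 5 genes for BM CD11b+ against LSK cells in controls, 2 to 4 in S3, 3 to 6 for spleen CD11b+ against LSK cells in controls, 2 to 3 in S3, 0 to 2 for spleen against BM in controls, and 0 to 1 for S3 in spleen, Ptpn11D61Y/+ in BM and in spleen, and the differences of BM CD11b+ from LSK cells and of spleen from BM. Without BM MxCre replicate 2, Pf4 was called lower in Ptpn11D61Y/+ and in the difference of BM CD11b+ from LSK cells. Without spleen MxCre replicate 2, Gp1bb was called higher in both genotypes in spleen, against 1 MxCre library with 0 counts. With the replicate block, the counts were 5 (controls) and 2 (S3) for BM CD11b+ against LSK cells, 4 and 2 for spleen CD11b+ against LSK cells, 1 for spleen against BM in controls and 0 for Ptpn11D61Y/+ against MxCre, and it changed no call beyond those given for Pf4 and Treml1. Within a fraction, S3 and MxCre share no replicate number, so no paired analysis of these 2 was possible there. The differences of the S3 against MxCre change between fractions were fitted with the block, with 0 of the 10 called in each. Over all genes, the number called for S3 against MxCre in spleen was 819 with edgeR and 3409 with DESeq2, and for Ptpn11D61Y/+ 1000 and 3381. Whether genes with few counts, Gp6 above all, could show moderate differences at this depth was not tested.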
